A study of Mus musculus with 13 samples.

Results

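The comparison described here sets the J2 precipitate of Yumm1.7 cells given 5-Aza-CdR and then ADAR1i-124 against the J2 precipitate of cells given 5-Aza-CdR without the inhibitor, and it describes what differs when ADAR1i-124 is added to a DNA demethylating agent. It was chosen by its labels and uses 2 of the 13 libraries, 1 library for each condition, and 14196 of 54532 genes, those that averaged 1 CPM or more in the pair (CPM, counts scaled to a column sum of 1000000). Yumm1.7 is a mouse melanoma line driven by mutant Braf. Per the labels, ADAR1i-124 was used at 10 µM for 12 h and 5-Aza-CdR at 1 µM for 72 h, and controls were given DMSO. In the combination, per the study's own account, the inhibitor followed the course of 5-Aza-CdR, so the time from the first dose to harvest may differ within the pair and cannot be told apart from the inhibitor. Before precipitation the RNA was treated with RNase I, an enzyme that degrades unpaired RNA, and with DNase, so the counts are of fragments recovered after digestion and precipitation. The series also holds J2 libraries of DMSO and of ADAR1i-124 without 5-Aza-CdR, all 4 conditions as total RNA and as Z22 precipitates, and 1 IgG precipitate whose treatment is not given. IgG, the control antibody, held many RNAs too: Actb stood at 3866 CPM in it, against 2203 and 2641 CPM in the pair (5-Aza-CdR, combination). The 21 germline genes described below summed to 29.1 CPM in IgG, against 265 and 187 CPM. No IgG level was subtracted, and how much of the J2 counts J2 itself held was not tested.

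J2 is an antibody that binds double-stranded RNA whatever its sequence, and Z22 binds nucleic acid in the left-handed Z form. ADAR1, made by Adar, changes adenosine to inosine in double-stranded RNA, which weakens pairing and keeps cellular RNA from being sensed as foreign, and ADAR1i-124 is an inhibitor of this editing. 5-Aza-CdR (decitabine) traps DNA methyltransferases, so that repeats, germline genes and other methylated loci are transcribed, some of them from both strands.

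The pair was sequenced to 13297822 counts (5-Aza-CdR) and 11767409 counts (combination), so 3 counts, the floor used here, stand for 0.226 and 0.255 CPM. Across the 13 libraries the totals ran from 1245894 to 34571822, and the lowest, the total RNA of the combination, was not used. Germline genes, many of which are silenced by DNA methylation, were high in both J2 libraries: 21 of them summed to 265 CPM with 5-Aza-CdR and 187 CPM with the combination, against 51.6 CPM or less in the J2 libraries of DMSO and ADAR1i-124. Of 11 melanocyte markers, 4 had a count in the 5-Aza-CdR library and 3 in the combination library, and Mitf alone passed 1 CPM (26.5 and 25.5 CPM). The 9 leukocyte, 6 endothelial and 7 keratinocyte markers summed to 18.5, 62.3 and 5.34 CPM with 5-Aza-CdR and to 19.9, 61.8 and 7.56 CPM with the combination. Most of the endothelial sums was Cdh5 (60.2 and 59.6 CPM, against 8.21 CPM in J2 DMSO). Most of the leukocyte sums was Cd68 (17.8 and 18.4 CPM). The libraries labelled with a given treatment did not match across kinds of library for Y-linked genes and for Bgn and Col1a2. Y-linked transcripts (Ddx3y, Kdm5d, Uty and Eif2s3y, chosen after their values were seen) summed to 56.6 CPM in J2 DMSO, 2.71 CPM in J2 ADAR1i-124, 3.16 CPM in J2 5-Aza-CdR and 9.60 CPM in the J2 combination, and in the same treatments of total RNA to 6.46 CPM (DMSO), 106 CPM (ADAR1i-124) and 89.1 CPM (5-Aza-CdR). Y-linked genes are thus high in one kind of library where they are low in the other. Other lists were mixed in this. Mitosis genes (17) also differed between the kinds of library: they summed to 3626 CPM (DMSO), 2595 CPM (ADAR1i-124) and 466 CPM (5-Aza-CdR) in total RNA and to 875, 4411 and 973 CPM in J2. The 13 annotated loci with major satellite sequence, a list drawn up after its values were seen, summed in total RNA to 7.23, 13.4 and 139 CPM in the same order, and were highest with 5-Aza-CdR of these 3 treatments in J2 too. The 21 germline genes summed in total RNA to 40.1, 1.59 and 54.7 CPM, and 8, 5 and 18 of them had a count. The sums of DMSO and 5-Aza-CdR thus lay close there, while more genes had a count in the deeper 5-Aza-CdR library. Dazl had 0 counts with DMSO and 107 with 5-Aza-CdR in total RNA. Values by treatment below follow the labels as given, and what gave the differences between kinds of library was not tested. With 1 library for each condition no test between conditions was possible and no p-value is given; intervals below are 95% Wilson intervals of a gene's share of the pair's counts and cover counting error only.

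Several of the loci that moved most are repeats of one sequence, and their letters show which counts cannot be told apart. Among the genes at least 2-fold higher were 5 short loci that the annotation classes as microRNA genes, shown here because 3 of them are identical over all 57 bases, so that a read from one fits the others. Gm24187 differs from Gm23935 by 1 base (G11A, counted from the 5′ end, Gm23935 first), and Gm25911 is 56 bases long. Capitals mark the run of 23 bases that all 5 hold, and the sequences are from the GENCODE M21 transcripts on GRCm38.
Gm23935 (chr16:11144125-11144181, plus strand): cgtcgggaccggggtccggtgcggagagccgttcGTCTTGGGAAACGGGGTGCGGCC
Gm24270 (chr9:56223715-56223771, minus strand): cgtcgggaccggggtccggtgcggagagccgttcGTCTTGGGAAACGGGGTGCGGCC
Gm24245 (chr4:139338304-139338360, plus strand): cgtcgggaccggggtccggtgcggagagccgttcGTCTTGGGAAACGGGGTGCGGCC
Gm24187 (chr13:9834469-9834525, minus strand): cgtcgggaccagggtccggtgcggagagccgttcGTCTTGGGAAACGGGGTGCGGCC
Gm25911 (chr1:167340369-167340424, minus strand): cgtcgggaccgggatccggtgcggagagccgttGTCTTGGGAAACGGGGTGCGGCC

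Among the falls was Gm23238, a small nuclear RNA gene that shares 75.9% of its 20-base runs with Rnu1a1, a gene of the U1 RNA that recognises splice donor sites; capitals mark the longest run shared with Rnu1a1, 129 bases.
Gm23238 (chr19:18732741-18732904, plus strand): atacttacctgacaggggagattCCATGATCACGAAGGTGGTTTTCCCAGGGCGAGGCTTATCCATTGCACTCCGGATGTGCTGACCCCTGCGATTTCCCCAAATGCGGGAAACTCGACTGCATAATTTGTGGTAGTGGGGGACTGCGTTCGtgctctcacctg
Lastly, 13 annotated loci on chromosomes 2, 9 and 14 carry major satellite sequence, the repeat beside mouse centromeres. The longest run they all hold is 30 bases, and no other annotated transcript holds it.
Shared satellite run: AAAAACGTGAAAAATGAGAAATGCACACTG

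The 2 libraries were close to each other. Their counts correlated across the 14196 genes with a Spearman's rho of 0.985, a description over genes that share library and length, and the median log2 difference (combination minus 5-Aza-CdR, of CPM plus 0.5) was 0.05, with an SD over genes of 0.39 and a robust SD of 0.32. At least 2-fold, 204 genes were higher in the combination (1.44% of genes) and 91 were lower (0.641%), and at least 4-fold, 30 were higher (0.211%) and 4 lower (0.0282%). The line itself is a soft one: Acss2 (a log2 difference of 1.003) lay just inside the upper side and Clcn2 (0.999) just outside, and Gm5879 (-1.0004) and Mirlet7a-1 (-0.999) lay just inside and outside the lower side. The counting interval lay wholly beyond 2-fold for 77 of the genes that were higher and 26 of those that were lower.

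The robust SD was 0.50 for genes of 1 to 2 CPM, where counting gives a median SD of 0.50 for a gene, and 0.23 for genes of 100 to 300 CPM, where counting gives 0.05. Differences between the libraries at moderate level were therefore several times larger than counting error, and 95% of genes of 30 to 100 CPM lay between ratios of 0.694 and 1.46. Pairs that share no library with this one were wider: the robust SD was 0.43 for the Z22 combination against Z22 5-Aza-CdR and 0.67 for J2 ADAR1i-124 against J2 DMSO, each over its own genes of at least 1 CPM. Because no condition was repeated, the part of this spread that any 2 libraries of a condition would show is not known.

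**Figure D1:**
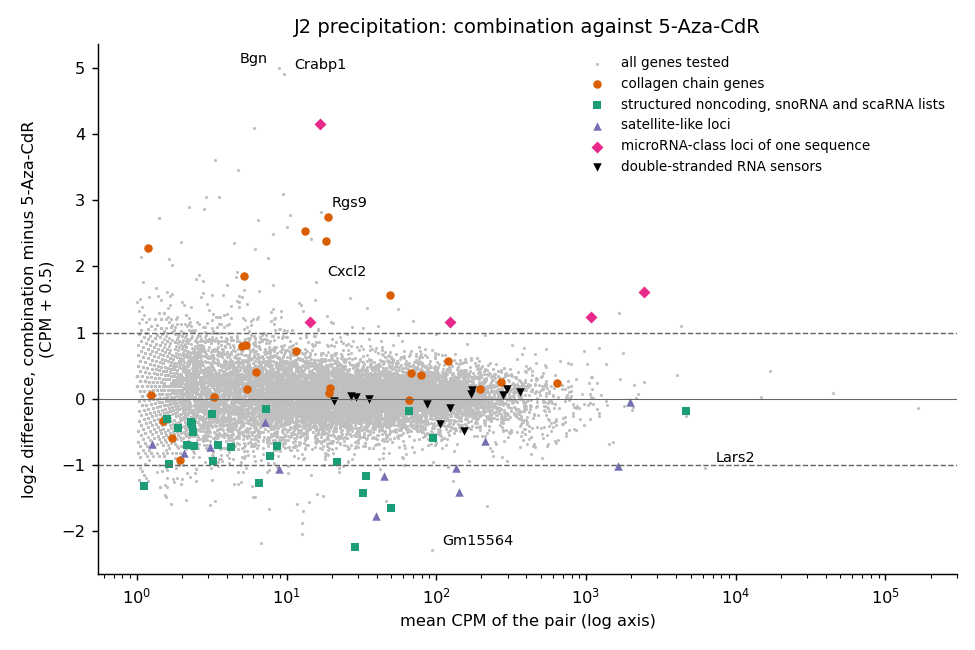
The log2 difference (combination minus 5-Aza-CdR, CPM plus 0.5) of each of 14196 genes is plotted against the mean CPM of the pair on a log axis; dashed lines mark 2-fold. Sensors lie near 0, 5 microRNA-class loci lie above 1, and structured, nucleolar and satellite-like RNAs lie below 0.

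Of 25 collagen chain genes tested, 6 were at least 2-fold higher in the combination and 0 lower, with a median of 0.36, against 1.44% higher and 0.641% lower of all genes. Bgn (biglycan, a matrix proteoglycan, ENSMUSG00000031375, chrX:73483602-73495933) had 1 count with 5-Aza-CdR and 210 with the combination, a ratio of 237 (interval 41.8 to 1349). Crabp1, which binds retinoic acid in the cytoplasm, had 2 and 223 counts, a ratio of 126 (34.4 to 462). Both were nearly absent from the 5-Aza-CdR library, so the ratios rest on 1 and 2 counts and their size is loose. Col4a1 and Col4a2, the chains of basement membrane collagen, rose from 60 to 389 counts and from 47 to 270 counts, ratios of 7.33 (5.59 to 9.61) and 6.49 (4.77 to 8.84).

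Other rises were Col1a2, a chain of type I collagen (74 to 368 counts, a log2 difference of 2.39), and Col6a3 of microfibrillar collagen (324 to 865 counts, 1.57). Igfbp3 and Igfbp4, which bind insulin-like growth factors, rose from 33 to 207 and from 57 to 293 counts. Timp3, an inhibitor of matrix proteases, rose from 21 to 203 counts, Pdgfra, a growth factor receptor of mesenchymal cells, from 144 to 311, and Bmp2, a morphogen, from 87 to 216 (these 3 chosen after their values were seen). Slc14a1, a urea transporter, rose from 31 to 222 counts, and Nptx1 (3 and 139), Efemp1 (1 and 77, a fibulin of the matrix) and Rasgrf1 (5 and 107, an exchange factor for Ras) completed the genes of 1 to 10 CPM with the largest rises. Among the other collagen chain genes, Col3a1 (2493 and 2435 counts) and Col5a2 (874 and 763) lay close to 0, at 0.14 and -0.02.

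The same genes were read in every kind of library. Bgn stood at 71.1 CPM in J2 DMSO, 8.96 CPM in J2 ADAR1i-124, 0.0752 CPM in J2 5-Aza-CdR and 17.8 CPM in the J2 combination. In Z22 it stood at 39.1, 28.9, 0.490 and 19.2 CPM in the same order, and in total RNA at 0.646 CPM (DMSO), 251 CPM (ADAR1i-124) and 227 CPM (5-Aza-CdR). The 5-Aza-CdR libraries were therefore the lowest of both precipitations and among the highest of total RNA. Col1a2 had the same form, with 363, 22.8, 5.56 and 31.3 CPM in J2, and Ddx3y, an RNA helicase gene of the Y chromosome, moved with them, from 18 to 59 counts in the pair (26.3, 1.46, 1.35 and 5.01 CPM in J2). For these 3 genes the J2 combination thus lay above 5-Aza-CdR and below DMSO, and whether these rises have one source was not tested.

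In comparisons that share no library with the pair, the 204 genes that were higher behaved as follows. In the Z22 pair, 64 of the 204 were at least 2-fold higher (31.4%, against 2.33% of all genes tested) and 12 at least 2-fold lower (5.88%, against 6.43%). In J2 ADAR1i-124 against DMSO, 5 were at least 2-fold higher (2.45%, against 6.95%) and 89 at least 2-fold lower (43.6%, against 10.3%). With 5-Aza-CdR against DMSO in Z22, 31 of them were at least 4-fold lower (15.2%, against 0.697%) and 23 at least 4-fold higher (11.3%, against 19.3%), with a median of 0.45 where all genes had 1.08. With 5-Aza-CdR against DMSO in total RNA, 82 were at least 4-fold higher (40.2%, against 5.33%) and 1 at least 4-fold lower (0.490%, against 1.7%). Bgn had a log2 difference of 4.32 in the Z22 pair and of -2.92 in J2 ADAR1i-124 against DMSO. The Z22 precipitates carry the same treatment labels, so they are no replicate of the J2 pair if both were made from the same RNA.

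**Figure D2:**
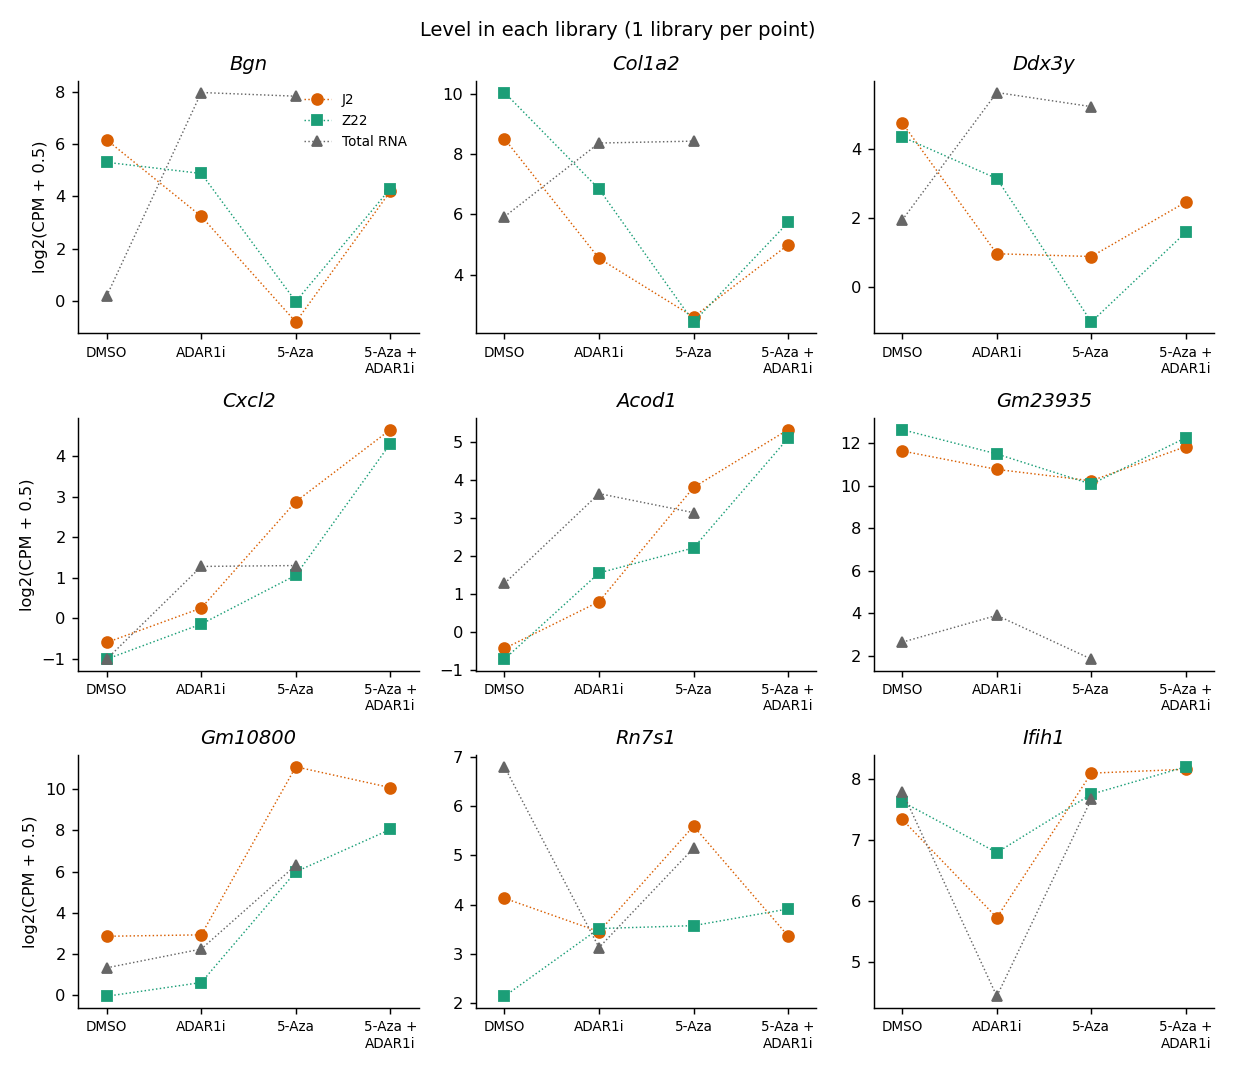
Each panel gives log2(CPM + 0.5) of a gene in the J2, Z22 and total RNA libraries by treatment, with 1 library for each point and the total RNA of the combination left out. Bgn, Col1a2 and Ddx3y are low in both 5-Aza-CdR precipitates and high in the total RNA of 5-Aza-CdR, and Cxcl2 and Acod1 are highest in the combination in both precipitates.

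Of 14 NF-kappaB targets and chemokines, Cxcl2 was the only gene past 2-fold, against 1.44% of all genes higher and 0.641% lower. Cxcl2, a chemokine that draws neutrophils, rose from 91 to 289 counts, a ratio of 3.59 (2.84 to 4.54), and in Z22 from 13 to 176 counts. Acod1, the enzyme that makes itaconate in activated macrophages, rose from 180 to 467 counts, a ratio of 2.93 (2.47 to 3.48), and in Z22 from 34 to 310. Unlike Bgn and Col1a2, both were at or below 1.25 CPM in J2 DMSO and J2 ADAR1i-124, and the combination was the highest of the 4 J2 libraries. Clec4e, a receptor for glycolipids, had 3 and 65 counts, a ratio of 24.5 (8.14 to 73.6), and 0 and 31 counts in Z22. Junb, an AP-1 subunit induced within minutes of a stimulus, rose from 412 to 943 counts (1.36, and 1.82 in Z22), and the acute phase gene Saa3 rose from 160 to 325 (1.17). Lcn2, an iron-sequestering protein of inflammation, lay just under the line (1906 and 3293 counts, 0.96; it, Clec4e and Saa3 were named after their values were seen).

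Over those 14 NF-kappaB targets and chemokines the median was 0.12; in Z22 the median was 0.88 and 5 were at least 2-fold higher, against 2.33% of all genes. Cxcl1 was level in J2 (4258 and 4413 counts, 0.23). Of 19 immediate early genes, Junb alone was past 2-fold, against 1.44% of all genes higher, and 15 of 19 lay above 0 (median 0.21, against 0.05 for all genes), among them Ier2 at 0.64 and Jun at 0.54. Among 15 p53 targets Gdf15, a stress cytokine, was past the line (32 and 84 counts, 1.39), against 1.44% of all genes higher, and the list's median was 0.00.

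The 5 short microRNA-class loci rose together, from a summed 1925 CPM to 5394 CPM. The class is the annotation's, and what RNA gave these counts was not tested. Gm23935 went from 15874 to 42988 counts (1.61), Gm24270 from 8581 to 17846 (1.23), Gm24187 from 1016 to 2023 (1.16), Gm25911 from 115 to 236 (1.17) and Gm24245 from 18 to 380 (4.14). Gm23935, Gm24270 and Gm24245 have one sequence, so the split of reads among them is uncertain and their sum is the safer value. In Z22 the sum was 1843 CPM with 5-Aza-CdR and 7492 CPM with the combination, in IgG 1292 CPM, and in total RNA of the other 3 treatments between 4.05 and 21.1 CPM. The sum was 4768 CPM in J2 DMSO and 2636 CPM in J2 ADAR1i-124, so among the J2 libraries 5-Aza-CdR was the lowest, ADAR1i-124 the next, and the combination lay above DMSO. Gm26917, a noncoding locus of chromosome 17 with ribosomal RNA sequence, rose from 36665 to 69233 counts (1.09), while its neighbour Gm42418, the most abundant entry at 17.4% and 15.8% of counts, did not (-0.14). Rgs9, a regulator of G protein signalling with at most 0.145 CPM in total RNA, rose from 51 to 354 counts in the pair. In J2 it stood at 13.2 CPM (DMSO), 3.20 CPM (ADAR1i-124), 3.84 CPM (5-Aza-CdR) and 30.1 CPM (combination).

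Structured noncoding RNAs were lower. All 6 of the list that passed 1 CPM lay below 0 (median -0.84), and 2 of them, Rn7s1 (636 to 115 counts, -2.23) and Rn7s2 (1006 to 280 counts, -1.65), were at least 2-fold lower, against 0.641% of all genes. Both are annotated genes of 7SL, the scaffold RNA of the signal recognition particle, and since their sequences are identical they count as one observation. Rn7s6 fell from 263 to 68 counts (-1.69). Rn7sk, the 7SK RNA that restrains transcription elongation and the most abundant of the list, went from 66135 to 51792 counts (-0.18). In Z22 all 6 lay above 0, with a median of 0.83.

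The 19 small nucleolar and Cajal body RNAs that passed 1 CPM all lay below 0 as well (median -0.70, from -1.42 to -0.16, and -0.27 with no filter on the mean), and 4 were at least 2-fold lower, against 0.641% of all genes: Snora73b (633 to 206 counts), Snord13 (24 to 5), Snord15a (126 to 43) and Scarna2 (627 to 245). These RNAs guide chemical modification or cleavage of ribosomal and spliceosomal RNA. In Z22 their median was -0.01, with 8 above and 11 below 0. Further falls were Gm22422 (277 to 55 counts), Gm25835 (269 to 61) and Gm25776 (158 to 40) of the snoRNA class, Gm25395 (344 to 106) of the Cajal body class, and among small nuclear RNAs Gm23238, the U1-like gene shown above (4394 to 1266 counts, -1.61), Gm25360 (281 to 81, -1.55), which shares 58.7% of its 20-base runs with the U2 gene Rnu2-10, and the near-identical pair Gm24407 (151 to 25) and Gm24265 (238 to 66). By class, 12 of 34 small nuclear and 10 of 40 small nucleolar RNA genes were at least 2-fold lower, against 0.641% of all genes and 28 of 11636 protein-coding genes. Rn7s1 stood at 16.99 CPM in J2 DMSO, 10.4 CPM in J2 ADAR1i-124, 47.8 CPM in J2 5-Aza-CdR and 9.77 CPM in the J2 combination, beside 57.0 CPM in IgG, so the 5-Aza-CdR library was the high one of the 4.

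Genes of cytoplasmic ribosomal proteins lay mostly below 0, 71 of 81 tested, with a median of -0.42; Rpl39 was the only one at least 2-fold lower, against 0.641% of all genes (2412 to 902 counts, -1.24), followed by Rpl37a (-0.94), Rps9 (-0.89) and Rps27 (-0.88). Ndufb1-ps, a noncoding entry named for a respiratory chain subunit, fell from 913 to 275 counts (-1.53). Over all genes the medians by length of the longest annotated transcript were lower for short genes, though not in strict order: the median was -0.35 for 131 genes under 200 bases, -0.08 for 360 genes of 200 to 500 bases, -0.13 for 903 genes of 500 to 1000 bases, 0.02 for 5519 genes of 2000 to 4000 bases and 0.21 for 728 genes of at least 8000 bases. Among protein-coding genes alone, the 43 of 200 to 500 bases had a median of 0.06 and the 423 of 500 to 1000 bases one of -0.28. Of the genes of at least 8000 bases, 618 lay above 0 and 110 below. In the Z22 pair the order was the opposite, from 0.08 for the shortest to -0.28 for the longest. Fragment length was not analysed here, and its part in this was not tested.

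**Figure D3:**
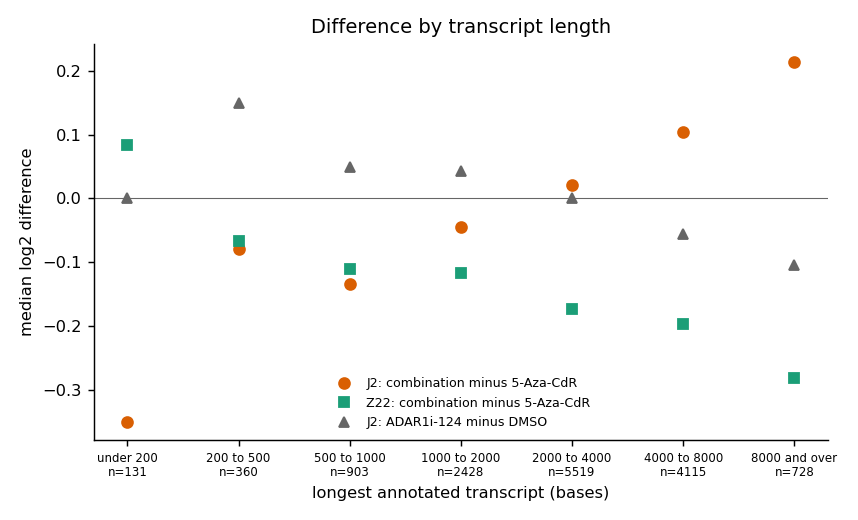
Median log2 difference of the genes in each class of longest annotated transcript (bases; n genes below each class) for 3 comparisons of 1 library against 1. The J2 pair runs from -0.35 for the shortest genes to 0.21 for the longest, with the class of 200 to 500 bases above the next one, and the Z22 pair from 0.08 to -0.28.

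Satellite-like loci, which appeared in the precipitates with 5-Aza-CdR, were lower in the J2 combination. The 13 loci summed to 41.2 CPM in J2 DMSO, 59.2 CPM in J2 ADAR1i-124, 4967 CPM in J2 5-Aza-CdR and 3406 CPM in the J2 combination. All 12 that passed 1 CPM lay below 0 (median -0.92) and 6 were at least 2-fold lower, against 0.641% of all genes, among them Gm10722 (817 to 209 counts, -1.76), Gm10801 (2756 to 917, -1.41), Gm10718 (823 to 320, -1.17) and Gm10800 (29027 to 12728, -1.01). Gm26870, a long noncoding entry that spans the chromosome 9 loci on the other strand, was level (26425 and 22730 counts, -0.04). In the Z22 pair the same loci were higher with the combination, 316 CPM against 1101 CPM, with all 12 above 0 (median 1.56) and 9 at least 2-fold higher, against 2.33% of all genes. Z22 held them at a much lower level than J2 in both conditions, and in IgG they summed to 7.24 CPM. The list was drawn up after its values were seen, and the loci share reads.

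Of the 91 lower genes, 28 were protein-coding by class, satellite-like entries included. Gm15564, a noncoding entry of the antisense class, had the lowest log2 difference with 0.5 added (-2.28, 2059 to 370 counts, a ratio of 0.203 without it, interval 0.182 to 0.227). Lars2, a mitochondrial leucyl-tRNA synthetase gene that takes 0.837% of the 5-Aza-CdR library, fell from 111281 to 47978 counts (-1.04). In Z22 both genes were higher, at 0.95 and 0.54. Lars2, named after its values were seen, took 0.997% of IgG but 0.0331%, 0.00471% and 0.00203% of total RNA (DMSO, ADAR1i-124, 5-Aza-CdR). What sequence gave its counts in the precipitates was not tested. Bcl2l14, a member of the BCL2 family of apoptosis regulators, fell in both pairs (65 to 15 counts, -1.60, and -1.82 in Z22), and the pseudogene Gm10177 fell from 69 to 17 counts. Of the 91 genes, 8 were at least 2-fold lower in the Z22 pair (8.79%, against 6.43% of all genes tested) and 8 at least 2-fold higher (8.79%, against 2.33%). In J2 ADAR1i-124 against DMSO, 6 were at least 2-fold lower (6.59%, against 10.3%) and 7 higher (7.69%, against 6.95%).

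**Figure D4:**
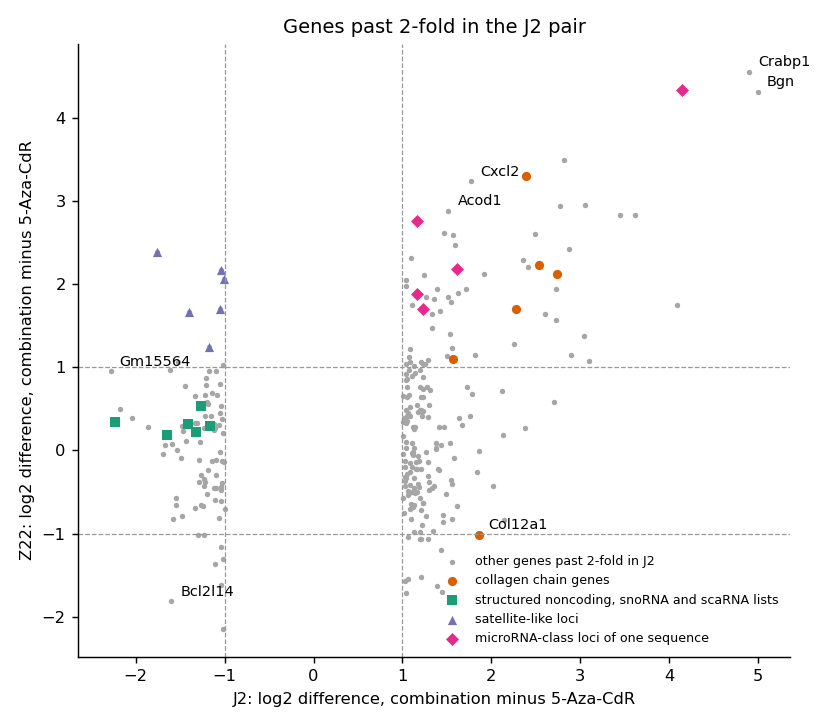
The genes at least 2-fold higher or lower in the J2 pair, with the log2 difference in J2 on the horizontal axis and in Z22 on the vertical axis; dashed lines mark 2-fold. Bgn, Crabp1, Cxcl2 and Acod1 are higher in both, satellite-like loci lie at the upper left, and the structured and nucleolar RNAs lie between the lines in Z22.

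The sensors of double-stranded RNA, whose ligands J2 is used to find, did not pass the line. All 13 were measured and 0 were past 2-fold, with a median of 0.03 and a range of -0.49 to 0.15. Since 1.44% of all genes were higher and 0.641% lower, a count of 0 in a list of this size does not set the sensors apart. Ifih1 (MDA5, the sensor of long duplexes) had 3640 and 3365 counts (0.06), Ddx58 (RIG-I, the sensor of duplex ends) 4638 and 4430 (0.11), Eif2ak2 (PKR, which halts translation) 3734 and 3676 (0.15), and Mavs, the adaptor of MDA5 and RIG-I, 352 and 320 (0.04). Zbp1, the sensor of Z-RNA, had 1729 and 1386 counts (-0.14), and in the Z22 pair it was the only sensor past 2-fold (1.20). Tlr3 (-0.00), Oas1b (0.03), Oas1g (-0.08), Oas2 (0.13) and Oas3 (0.07) were level, and Oas1a (2396 and 1508 counts, -0.49) and Dhx58 (1597 and 1080, -0.39) were the lowest.

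Of 50 interferon-stimulated genes, Cxcl9 alone was past 2-fold (23 and 47 counts, 1.01), near the 1.44% of all genes that were higher, and the median was -0.10, with 18 above and 32 below 0. Isg15, a ubiquitin-like modifier, had 8032 and 4903 counts (-0.54) and Ifit1, which binds foreign RNA ends, 3942 and 3658 (0.07), both named after their values were seen. In the Z22 pair 47 of the 50 lay above 0, with a median of 0.57 and 5 at least 2-fold higher, against 2.33% of all genes. Their summed level was 9690 CPM with 5-Aza-CdR and 9005 CPM with the combination, against 5404 CPM in J2 DMSO and 1181 CPM in J2 ADAR1i-124.

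Adar, whose product ADAR1i-124 inhibits, had 3386 and 2865 counts (-0.06), and Adarb1, the gene of ADAR2, 184 and 122 (-0.40). Over 14 ADAR enzymes and double-stranded RNA binding proteins the median was 0.14 and 0 were past 2-fold, against 1.44% of all genes higher and 0.641% lower. The 3 listed hosts of edited inverted repeats were level: Wdr76 (263 and 215 counts, -0.11), Iws1 (1174 and 1129, 0.12) and Gnl3l (1238 and 1032, -0.09). These counts are per gene, so editing and duplexes within a gene are not visible in them.

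**Figure D5:**
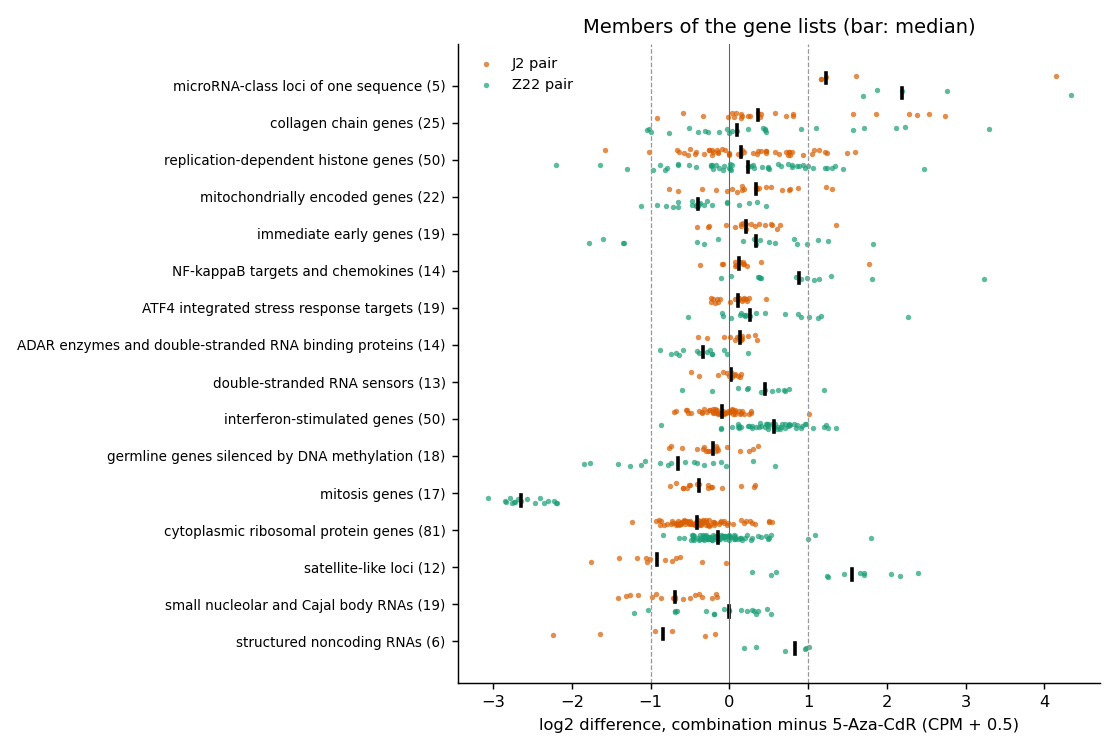
Log2 difference (combination minus 5-Aza-CdR, CPM plus 0.5) of the members of 16 gene lists in the J2 pair and the Z22 pair, with the number of genes of at least 1 CPM in brackets, a bar at each median and dashed lines at 2-fold. Sensors and interferon-stimulated genes lie around 0 in J2, and mitosis genes lie near -0.4 in J2 and below -2 in Z22.

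The 17 mitosis genes had a median of -0.38, with 14 below 0 and 0 past 2-fold, Cdk1, the kinase that starts mitosis, going from 1345 to 704 counts (-0.75) and Cdc20 from 306 to 167 (-0.68); in the Z22 pair all 17 were at least 2-fold lower, against 6.43% of all genes, with a median of -2.65. Cdk1 in Z22 stood at 147 CPM with 5-Aza-CdR and 21.9 CPM with the combination. Of 7 DNA methylation genes 0 were past the line, with Dnmt1, the maintenance enzyme (named after its values were seen), at -0.17 and the de novo enzyme Dnmt3a at 0.61. The 18 germline genes had a median of -0.21 and 0 past the line, Tex101 being the lowest (139 to 70 counts, -0.76). Of all genes 1.44% were higher and 0.641% lower in the J2 pair, so a J2 count of 0 in lists of these sizes does not set them apart. Xist, the RNA of X inactivation, was high in both libraries (3440 and 3920 counts, 0.36).

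Histone genes, whose messages end in a stem-loop in place of a poly(A) tail, were split: of 50 tested, 7 were at least 2-fold higher and 2 lower, against 1.44% and 0.641% of all genes, with a median of 0.15 that turned to -0.15 when genes had to average 10 CPM. Hist1h4a (15 to 52 counts, 1.60), Hist2h3b (7 to 28, 1.49) and Hist1h3e (48 to 108, 1.24) were the highest, and Hist2h2bb (37 to 7, -1.58) was the lowest; these genes have near-identical coding sequences and their counts are uncertain. Of 22 mitochondrial genes, 2 were past 2-fold, mt-Nd5 (12738 to 27842 counts, 1.30), a subunit of complex I, and the tRNA mt-Tt (31 to 72, 1.23), both higher, against 1.44% of all genes, and the median was 0.33. mt-Nd6, the coding gene of the light strand, moved less (6471 and 6383 counts, 0.16), as did mt-Rnr2 (570037 and 538930 counts, 0.10), and in Z22 mt-Nd5 was at -0.38. Both strands of the mitochondrial genome are transcribed in full, which gives natural duplexes that J2 can hold. The mitochondrial genes summed to 62972 CPM in IgG, against 65214 CPM in J2 5-Aza-CdR and 72492 CPM in the J2 combination.

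Grb10, an imprinted adaptor that restrains insulin signalling, rose from 5 to 79 counts (3.04), while the 7 imprinted genes tested had a median of 0.77, with Peg3 at 0.94 and Kcnq1ot1 at 0.77. By class, 27 genes are annotated as microRNA, the 5 short loci among them, and 6 of these, including all 5 short loci, were at least 2-fold higher and 3 lower, against 1.44% and 0.641% of all genes. Of 21 genes with a symbol of the Mir form, a list that takes in host transcripts and leaves out the short loci, 2 were higher, Mir155hg (66 to 135 counts, 1.13) and Mir5125 (9 to 24, 1.11), and 2 lower, Mir703 (22 to 5, -1.22) and Mir221 (37 to 11, -1.19), against the same shares. Of 43 zinc finger genes numbered Zfp900 to Zfp999, 2 were higher, Zfp951 (1.22) and Zfp931 (1.04), against 1.44% of all genes, with a median of 0.22. Malat1, a nuclear long noncoding RNA, had 194204 and 229035 counts (0.41) and Neat1, the scaffold of paraspeckles, 8674 and 11007 (0.52); 0 of 18 such RNAs were past the line. The lists of ATF4 targets (median 0.10), NRF2 targets (0.03), heat shock genes (-0.02), necroptosis and apoptosis genes (-0.14), cholesterol synthesis (-0.02), MAPK feedback genes (-0.00), repeat silencing (0.06), aryl hydrocarbon receptor targets (-0.23) and housekeeping genes (-0.15) held 0 genes past 2-fold, and Lce1g, of the epidermal envelope, was the only LCE1 gene to pass 1 CPM (0.72).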

How the data were processed

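RNA of Yumm1.7 cells was measured in 13 libraries, 1 for each condition. Read pairs were aligned by the authors to GRCm38 (mm10), using STAR run through snakePipes, and raw counts were deposited per Ensembl gene; the counting tool and its strand setting are not given in the sources used here, so a gene and an antisense partner, overlapping genes and copies of one sequence may share reads. Gene names, classes and lengths are from GENCODE M21. Counts were divided by the column sum to give CPM, 0.5 was added before log2, and genes averaging 1 CPM or more in the pair were kept. Intervals are 95% Wilson intervals of the share of a gene's counts in the pair, and a count of 3 was the floor. No test was fitted; lists were described by counts and medians, and intervals cover counting error only. PCR copies were not identified.

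Named genes were the 12 largest rises and falls at a mean of at least 10 CPM, up to 5 each way at 1 to 10 CPM whose interval lay beyond 2-fold, all sensors and edited hosts, Adar and Adarb1, and up to 4 genes of each other list; exceptions are marked, and 1 sensor that the counts include is not reported here by name. Besides 35 lists drawn up at the start, 3 were added later; the members and all lists were chosen with earlier results of these data known. Alternatives used edgeR 4.0.16 (TMM) and DESeq2 1.42.0 scaling. Python 3.11.15 and R 4.3.3 were used, and the functions were tested on simulated data.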

Additional observations from a re-analysis of the deposited data

Results flagged for a closer look

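Results are given here where the J2 and Z22 pairs, the combination against 5-Aza-CdR in each, lay on opposite sides of 0, for lists of at least 5 genes with both medians at least 0.5 from 0 and for genes past 2-fold in both; with 1 library for each condition, none of these differences was tested. The structured noncoding RNAs had a median log2 difference of -0.84 in J2 and 0.83 in Z22. The satellite-like loci had a median of -0.92 in J2 and 1.56 in Z22, and this list was chosen after its values were seen. Other lists had medians of opposite sign with at least one nearer to 0, among them mitochondrial genes (0.33 in J2 and -0.40 in Z22), interferon-stimulated genes (-0.10 and 0.57), imprinted genes (0.77 and -0.20) and nuclear long noncoding RNAs (0.06 and -0.44). At least 2-fold in both pairs, 12 genes were higher in J2 and lower in Z22. They are 5.88% of the 204 higher genes, near the 6.43% of all genes tested that were lower in Z22, so the count does not set the 204 apart. Among them were Col12a1 (26 to 99 counts in J2, 98 to 52 in Z22) and Sned1 (84 to 212 and 557 to 188), both of the extracellular matrix. A further 8 genes were lower in J2 and higher in Z22 (8.79% of the 91 lower genes, against 2.33% of all genes tested), and 6 of these are satellite-like loci, which share reads. No group had the 4 libraries that a check for outlying samples needs.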

How the results depend on the processing

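The 204 higher and 91 lower genes are counts past a line, and they moved with where the line and the filter were set. They were 353 and 150 with a pseudocount of 0.1, 77 and 34 with a pseudocount of 2, 398 and 157 with no filter on the mean, 33 and 31 with a filter at 10 CPM, 999 and 541 at 1.5-fold and 30 and 4 at 4-fold. Alternatives added after seeing the data gave 133 and 28 for protein-coding genes, 44 lower genes among those with a transcript of at least 500 bases, and 77 and 26 where the counting interval also had to lie beyond 2-fold. Scaling moved the counts by less than 1.5 times but shifted the balance: 174 and 109 with edgeR's TMM factors, 172 and 118 with DESeq2's size factors, and 242 and 107 with the column sum taken without the 20 most abundant genes. The robust SD was 0.33 without the 20 most abundant genes and with a pseudocount of 0.1, 0.27 with a pseudocount of 2, 0.35 with no filter and 0.26 with the filter at 10 CPM. Of the list medians, cholesterol synthesis was -0.10 under DESeq2's size factors, small nucleolar and Cajal body RNAs -0.27 with no filter and histone genes -0.15 with the filter at 10 CPM; these moves exceeded the order-statistic interval of the main median, and no other fixed list's median did. No named gene past 2-fold changed sign under the alternatives run. No paired analysis was possible because each condition has 1 library and the labels give no replicate numbers, and for the same reason no library could be left out. Depth limits genes below about 0.3 CPM, where 3 counts or fewer are expected.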
